A study of Mus musculus with 6 samples.

Results

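The genes described here are the integrin subunits and the other adhesion molecules with which leukocytes hold on to vessel walls, matrix and each other. They were taken by gene symbol from a fixed list of 35 genes, which comprises 17 integrin α chains, 8 integrin β chains, P-selectin, E-selectin and the selectin ligand PSGL-1, 5 immunoglobulin superfamily molecules, and CD44 and CD47. All 35 had a row among the 54232 genes of the RNA-seq tables. The selection used gene names and no threshold on a measured value. The RNA-seq experiment compared WT with Ifnar1-/- monocytes sorted from the CNS of mice with EAE, a mouse model of multiple sclerosis, with 3 libraries per group. Both kinds of monocyte arose in mixed BM chimera mice. Lethally irradiated GFP+ recipients were given marrow of WT (CD45.1) and Ifnar1-/- (CD45.2) donors at a ratio of 1:1, and EAE was induced 6 to 7 weeks later. All of the mice received 30000 IU of IFN-β per day, so that no library came from untreated mice and the groups differed in the receptor, not in the treatment. At the peak of disease the cells were sorted as GFP-CD45+CD11b+Ly6ChiLy6G-. WT cells always came from CD45.1 donors and Ifnar1-/- cells from CD45.2 donors, so the receptor and the donor strain cannot be told apart. The sources do not say which recipient gave which library, and p-values therefore measure the spread between these libraries, which may be technical in part.

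Integrins are cell surface receptors made of 1 α and 1 β chain. The β2 chain (Itgb2, CD18) pairs with αL (Itgal), αM (Itgam), αX (Itgax) and αD (Itgad) on leukocytes and binds ICAMs and complement fragments. The β1 chain (Itgb1) pairs with α1 to α11 and binds collagens, laminins, fibronectin or VCAM-1. The α4 chain (Itga4) pairs with β1 or with β7 (Itgb7), and α4β1 on leukocytes binds VCAM-1 on inflamed CNS vessels. Rolling along a vessel precedes firm adhesion and depends on selectins and on their ligand PSGL-1 (Selplg).

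Library totals lay between 4531782 and 7321380 expected counts, the estimated numbers of reads per gene that RSEM gives. Mitochondrial ribosomal RNA took 12.3% to 22.7% of them. After a filter on low counts 11254 genes were tested with edgeR's quasi-likelihood test, and a gene was called when its adjusted p was at most 0.05 and its fold change at least 1.5. Of these genes 240 (2.13%) were called, 188 (1.67%) higher and 52 (0.462%) lower in WT, and 2006 (17.8%) had an unadjusted p under 0.05. The targeted gene itself was not called, although the WT values lay narrowly above the others. Ifnar1 was at 153, 126 and 111 normalized CPM (counts scaled to library size after TMM normalization) in WT and at 110, 102 and 109 in Ifnar1-/- libraries (log2 fold change 0.28, edgeR adjusted p = 0.360). Counts per gene do not show which part of Ifnar1 the allele disrupts, so this level does not check the labels. The 7 monocyte markers summed to 10994 to 13460 TPM in WT and 9690 to 12689 in Ifnar1-/- libraries, with TPM rescaled over protein-coding genes to the same total in each library. The sort marker Ly6c2 was the only 1 of the 7 that was called and was 1.4 higher on the log2 scale in WT (edgeR adjusted p = 0.0096). The 7 markers differed in direction, with 5 positive and 2 negative log2 fold changes. Fcgr1 was higher in WT (0.71, edgeR adjusted p = 0.084) and Ccr2 lower (-0.62, edgeR adjusted p = 0.143), and neither was called. The sum of the 9 neutrophil markers was highest in library 3 of each group, at 8837 and 10060 TPM against 920 to 3887 in the other 4 libraries, although Ly6g had 0 to 4 counts. The 9 T cell markers summed to 87.6, 38.1 and 92.0 TPM in WT and to 44.5, 13.1 and 22.3 in Ifnar1-/- libraries. Of the 6 that could be tested, 5 had an unadjusted p under 0.05, all higher in WT, with none called. Their counts were low, and Cd3d, with 30, 9 and 13 against 12, 2 and 2 counts, passed the filter through its WT libraries. Which of these markers were tested thus depended in part on the group where they were high. The 6 microglia markers summed to 292 to 373 and 332 to 429 TPM, and none was called. The marker lists of B cells, NK cells, DCs and mast cells summed to at most 22.4 TPM each in any library.

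Few differences were called in the adhesion genes of CNS monocytes with and without the receptor for type I IFN. Of the 35 genes, 22 passed the filter on low counts, and only Itga1, the α chain of the collagen receptor α1β1, was called by edgeR. It was lower in WT, and this single call made 4.55% of the 22 genes against 2.13% of all genes tested. No member was called higher in WT by edgeR, by DESeq2 (3.15% of all genes) or by limma-voom (1.58% of all genes), and 1 gene, Selplg, was higher in WT at an unadjusted p under 0.05. The 22 genes had a median log2 fold change (WT minus Ifnar1-/-) of 0.10, against -0.01 over all genes tested, with 15 positive and 7 negative values. The median was 0.02 without WT library 1 and 0.01 with GC and length offsets (0.00 and -0.02 over all genes).

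For 12 of the 22 genes (54.5%) the 95% interval of the difference lay wholly within 1.5-fold in either direction, which held for 30.7% of all genes tested. Their median SE was 0.17 on the log2 scale against 0.21 over all genes. The libraries of the groups did not overlap for 3 of the 22 genes, where 23.4% of all genes tested had groups that did not overlap. These were Itga1, with all WT libraries below (12.2% of all genes), and Selplg and Icam1, with all WT libraries above (11.1%). The 13 genes that were not tested are described by their counts further on.

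**Figure D1:**
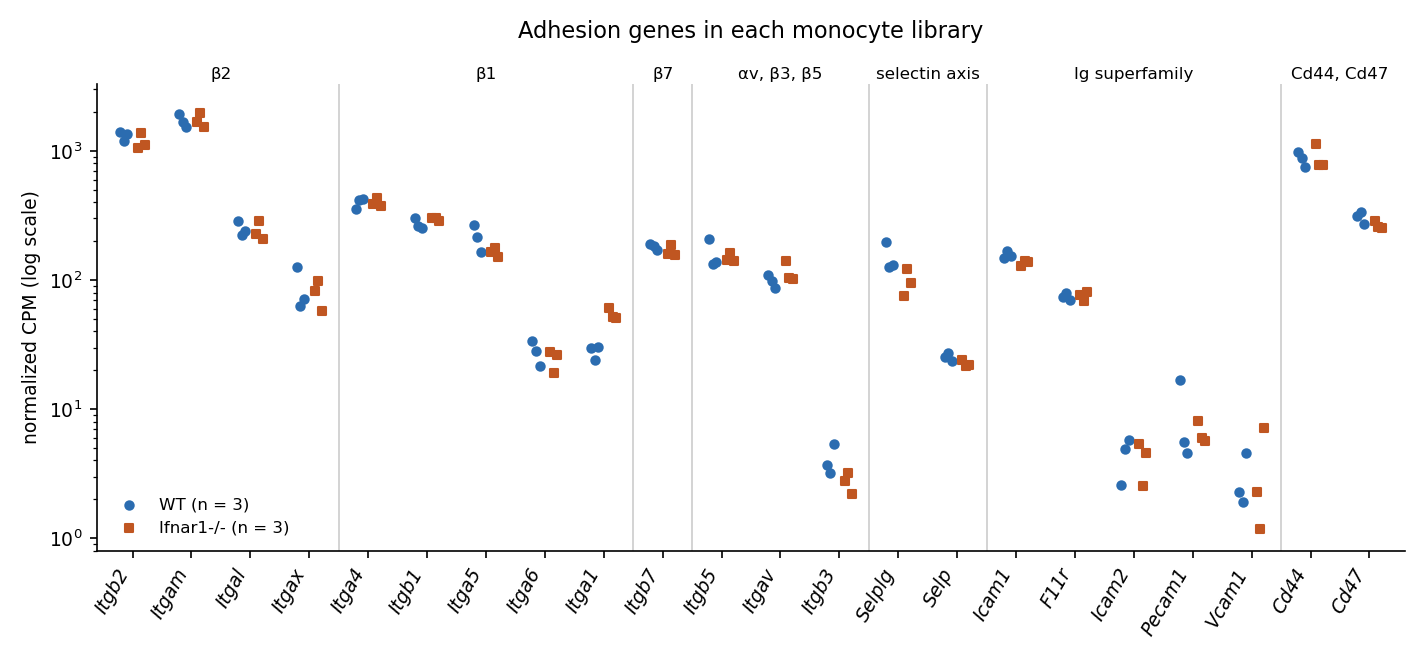
Normalized CPM (log scale) of the 22 adhesion genes that passed the filter, grouped by family, with 1 point per library for 3 WT (circles) and 3 Ifnar1-/- (squares) libraries. Points of the groups intermingle for most genes, whereas the 3 WT points of Itga1 lie at 23.8 to 30.0 CPM, below the Ifnar1-/- points at 50.6 to 60.3 CPM.

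**Figure D2:**
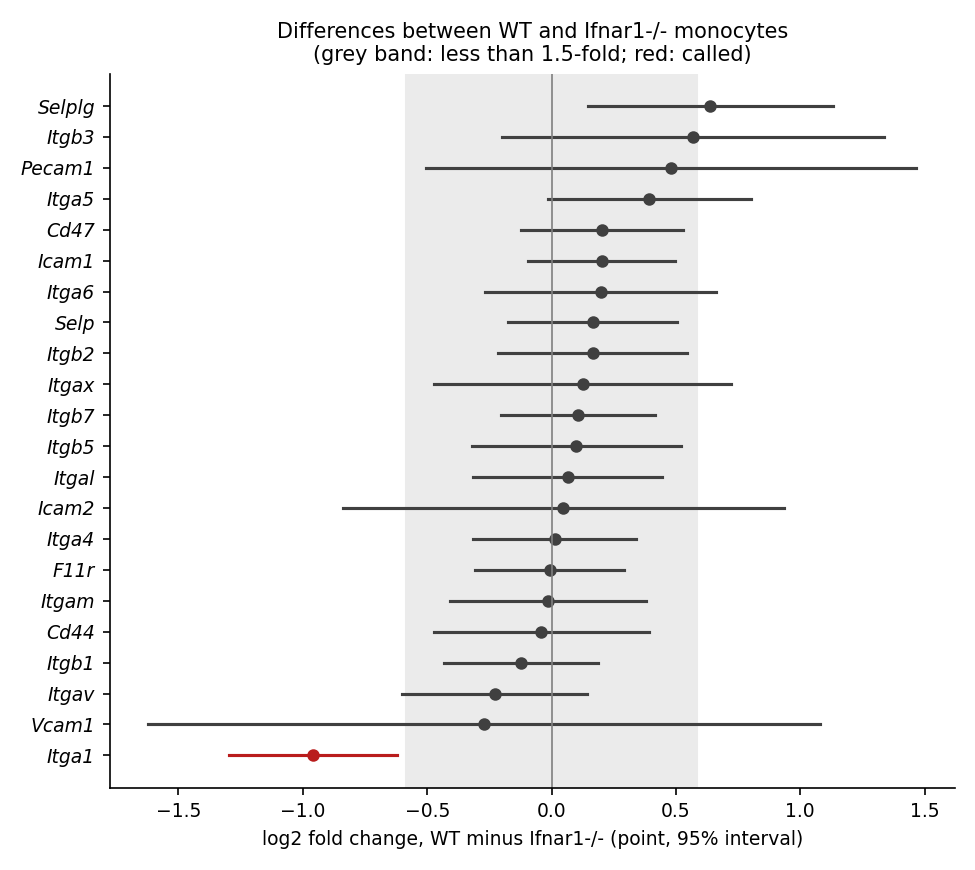
Log2 fold change (WT minus Ifnar1-/-) of the same 22 genes with its 95% interval from edgeR, ordered by size, on a horizontal axis without units. The grey band marks differences under 1.5-fold and holds 12 of the 22 intervals, and Itga1 (red, -0.96) was the only gene called.

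Among the β1 integrins, the α chains split by level, and of the 4 that were tested 1 was called. Itga1 (ENSMUSG00000042284.10, chr13:114953096-115101964, minus strand, GRCm38) was at 29.7, 23.8 and 30.0 CPM in the 3 WT libraries and at 60.3, 51.7 and 50.6 CPM in the 3 Ifnar1-/- libraries. Every WT library lay below every Ifnar1-/- library, and the group means were 27.9 ± 3.51 and 54.2 ± 5.34 (SD, n = 3 each). The log2 fold change was -0.96 with an SE of 0.15 and a 95% interval of -1.30 to -0.62 (edgeR adjusted p = 0.0083), which corresponds to a 1.94-fold higher level in Ifnar1-/- monocytes. In bulk samples such as these, a change in the number of cells that express a gene and a change in RNA per cell cannot be told apart. Leaving out 1 library at a time gave log2 fold changes between -1.0 and -0.85, and the call was lost only without Ifnar1-/- library 1 (-0.86, edgeR adjusted p = 0.060). With libraries 1 and 2 of each group alone, that is, without both libraries high in neutrophil markers, the log2 fold change was -1.05 but the gene was no longer called (edgeR adjusted p = 0.102).

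Ratios within libraries express the same Itga1 values relative to its family and are no further test of the difference. TPM, which is scaled for transcript length, put Itga1 at a fraction of 0.0246 to 0.0290 of the summed α1 to α11 chains in WT and at 0.0453 to 0.0603 in Ifnar1-/- libraries. Itga4 was 18.6, 23.8 and 22.7 times as high as Itga1 per length in WT libraries and 10.1, 12.9 and 13.1 times in Ifnar1-/- libraries. The transcript length that RSEM weighted by isoform abundance was 6250, 5347 and 5896 bases for Itga1 in WT and 6312, 6324 and 6697 bases in Ifnar1-/- libraries, so that it was shorter in all 3 WT libraries. On the gene's span lie Pelo and Gm49395 on the same strand and Gm10734 on the other strand, and how reads of overlapping genes were assigned is uncertain. Pelo had 38 to 67 counts per library and a log2 fold change of 0.08 (edgeR adjusted p = 0.894), and Gm49395 had 1 to 15 counts, whereas Itga1 had 112 to 395. The neighboring gene Itga2, at chr13:114833081-114932100, encodes the α chain of the other collagen receptor α2β1 and had 0 to 2 counts per library.

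The sequence before the start of Itga1 is shown because Itga1 was the only gene called, and that of Icam1 because it held a match to a motif of IFN signaling. They are the 250 bases upstream of the RefSeq start on GRCm38.p6, at chr13:115101965-115102214 (minus strand) and chr9:21015690-21015939 (plus strand), written 5′ to 3′ in lower case. Capitals mark a match to the GAS motif TTCNNNGAA, to which STAT dimers bind.
Itga1: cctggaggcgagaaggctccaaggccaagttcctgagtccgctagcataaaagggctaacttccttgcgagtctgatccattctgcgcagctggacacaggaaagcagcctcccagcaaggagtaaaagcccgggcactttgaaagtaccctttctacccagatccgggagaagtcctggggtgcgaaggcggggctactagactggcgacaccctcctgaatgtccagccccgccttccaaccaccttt
Icam1: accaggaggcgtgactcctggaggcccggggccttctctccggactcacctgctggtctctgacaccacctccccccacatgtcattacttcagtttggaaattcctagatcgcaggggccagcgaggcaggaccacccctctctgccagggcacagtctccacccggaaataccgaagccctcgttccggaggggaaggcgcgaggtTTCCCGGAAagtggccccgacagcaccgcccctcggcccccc

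The GAS motif was searched on both strands. The upstream window of Itga1 held no match, and that of Icam1 held the GAS match TTCCCGGAA starting 42 bases before the RefSeq start. The Icam1 window ends at 21015939, whereas GENCODE M21 starts the gene at 21015985. Bases just after the RefSeq start were not found in a GENCODE transcript of Icam1. The distance of the match therefore depends on the start chosen. Of the 23 adhesion genes with a sequence in the RefSeq table, 3 (Icam1, Sele and Itga10) held a GAS match, while over all 27025 genes the share was 8.13%. A match is a description of these letters only.

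Itga4, which pairs with β1 and β7 and is the target of an antibody used in multiple sclerosis, was the α chain of this family with the highest level. It was at 357, 421 and 427 normalized CPM in WT and at 388, 429 and 376 in Ifnar1-/- libraries. The groups overlapped, and the log2 fold change of 0.01 had a 95% interval of -0.31 to 0.34 (edgeR adjusted p = 0.978). Itga5, the α chain of the fibronectin receptor, was at 268, 214 and 165 CPM in WT and at 164, 178 and 152 in Ifnar1-/- libraries. Only WT libraries 1 and 2 exceeded the highest Ifnar1-/- library, and the log2 fold change of 0.39 (95% interval -0.01 to 0.80) was not called (edgeR adjusted p = 0.294). Itga6, a laminin receptor chain, was at 21.5 to 33.6 CPM in WT and 19.0 to 27.8 CPM in Ifnar1-/- libraries (log2 fold change 0.20, 95% interval -0.27 to 0.66). The shared chain Itgb1 was at 301, 262 and 255 CPM in WT and at 303, 301 and 289 in Ifnar1-/- libraries, with a log2 fold change of -0.12 (95% interval -0.43 to 0.19, edgeR adjusted p = 0.688). Of the 5 β1 integrin genes tested, 1 was called.

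**Figure D3:**
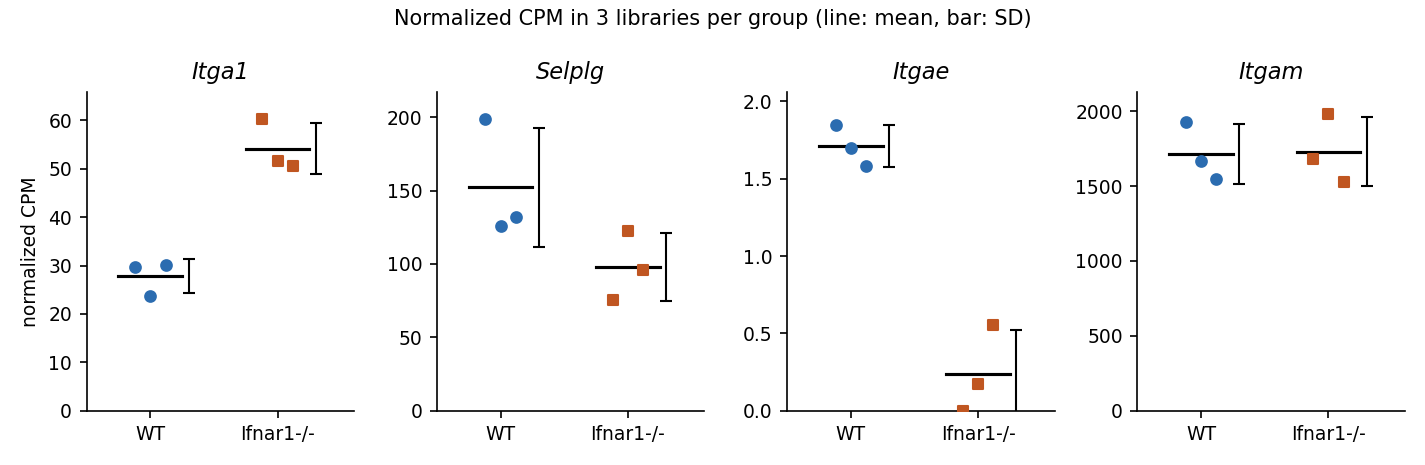
Normalized CPM (linear axes from 0) of Itga1, Selplg, Itgae and Itgam in 3 WT (circles) and 3 Ifnar1-/- (squares) libraries, with the mean as a line and the SD as a bar, which is cut at 0 for Itgae. The groups do not overlap for Itga1, Selplg and Itgae and overlap for Itgam, and all 3 Ifnar1-/- points of Itgae lie at or below 0.552 CPM.

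Selplg (ENSMUSG00000048163.13, chr5:113818536-113832644) encodes PSGL-1, the mucin that binds P-selectin. It was at 199, 126 and 132 normalized CPM in WT and at 75.6, 122 and 95.6 in Ifnar1-/- libraries. All WT libraries were above all Ifnar1-/- libraries, but WT library 2 and Ifnar1-/- library 2 were close. The log2 fold change was 0.64 with an SE of 0.22 (95% interval 0.15 to 1.13), and the difference was not called (edgeR adjusted p = 0.172, unadjusted p = 0.0158). Leaving out WT library 1 lowered it to 0.41 (edgeR adjusted p = 0.425), and with no filter on low counts, where 21265 genes were fitted and 2.87% of them were called higher in WT, Selplg was called (0.63, edgeR adjusted p = 0.0097). Selp, which encodes P-selectin of platelets and endothelium, was detected at 23.5 to 27.4 CPM in WT and 21.5 to 24.1 CPM in Ifnar1-/- libraries (log2 fold change 0.17, edgeR adjusted p = 0.612). Of the 7 platelet and megakaryocyte markers, Gp9 and Gp1ba had no count in any library and the other 5 had 0 to 4, and the list summed to 2.33 to 2.53 TPM in WT and 2.71 to 7.16 in Ifnar1-/- libraries. Sele, E-selectin of activated endothelium, had no count.

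Itgae encodes αE (CD103), which pairs with β7 and binds E-cadherin on epithelium, and it is known from T cells and DCs. It had 13, 8 and 8 counts in WT and 0, 1 and 3 counts in Ifnar1-/- libraries. All WT libraries were above, at 1.85, 1.70 and 1.58 CPM against 0, 0.169 and 0.552 CPM, but the levels were near the detection floor of 3 counts, which was 0.427 to 0.638 CPM. The gene did not pass the filter. The summed counts of 29 and 4 gave a ratio of 7.72 after scaling for library size, with an exact 95% interval of 2.71 to 30.2 that covers counting error only. With no filter Itgae was called higher in WT (edgeR adjusted p = 0.027). The list of 9 T cell markers was at 38.1 to 92.0 TPM in WT and 13.1 to 44.5 TPM in Ifnar1-/- libraries, with Cd3e at 14 to 42 and 3 to 18 counts, and the part of such cells in the Itgae value was not tested. Haspin, which lies within Itgae on the other strand, had 11 to 32 counts per library and a log2 fold change of -0.13.

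Itgb7, the β partner of αE and α4, was at a far higher level than Itgae, at 189, 182 and 172 CPM in WT and 160, 188 and 156 CPM in Ifnar1-/- libraries. The groups overlapped through Ifnar1-/- library 2, and the log2 fold change of 0.11 had a 95% interval of -0.20 to 0.42 (edgeR adjusted p = 0.734). Per length, Itga4 was at 0.907 to 1.41 times the level of Itgb7 within single libraries and at 1.09 to 1.53 times that of Itgb1.

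The β2 integrins were the family with the highest level and none of them was called. Itgb2 was at 1413, 1198 and 1363 CPM in WT and at 1050, 1374 and 1119 in Ifnar1-/- libraries. Ifnar1-/- library 2 lay among the WT libraries, and the log2 fold change of 0.17 had a 95% interval of -0.21 to 0.54 (edgeR adjusted p = 0.656). Itgam, which encodes CD11b and was itself one of the proteins used to sort the cells, was at 1931, 1668 and 1544 CPM in WT and at 1678, 1983 and 1528 in Ifnar1-/- libraries. Its groups overlapped over nearly their whole range, with a log2 fold change of -0.01 (95% interval -0.41 to 0.38, edgeR adjusted p = 0.981). Gm49368 overlaps Itgam on the same strand and had 38 to 207 counts per library against 7820 to 13570 for Itgam.

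Itgal, the α chain of LFA-1, was at 223 to 289 CPM in WT and 206 to 285 CPM in Ifnar1-/- libraries (log2 fold change 0.07, 95% interval -0.31 to 0.45). Itgax, which encodes CD11c of DCs and activated monocytes, was at 125, 62.7 and 70.9 CPM in WT and at 82.9, 97.4 and 57.4 in Ifnar1-/- libraries. WT library 1 was the highest and the other WT libraries lay within the Ifnar1-/- range, and the log2 fold change was 0.13 (95% interval -0.47 to 0.72, edgeR adjusted p = 0.852). Itgad had no count in any library. The α genes of this family lie together on chromosome 7, with Itgam (128062640 to 128118491), Itgax (128129547 to 128150657) and Itgad (128154376 to 128223816) next to each other and Itgal at 127296260 to 127335138. Levels at this locus ranged from 1528 to 1983 CPM for Itgam to no count for Itgad.

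The composition of the β2 family was much alike in the 6 libraries. Per length, Itgam was 6.69 to 7.59 times as high as Itgal in every library. The summed α chains were 0.804 to 1.14 times as high as Itgb2, with WT values of 0.947, 1.00 and 0.804 and Ifnar1-/- values of 1.14, 1.03 and 0.984. Itgam over Itgax varied more, from 10.9 in WT library 1 to 19.6 in Ifnar1-/- library 3, and the groups overlapped. Itgb2 was 4.56 to 6.93 times as high as Itgb1. These ratios are descriptions with no test.

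The αv family, which binds vitronectin and latent TGF-β, had 3 genes with enough counts, and none was called. Itgav was at 110, 97.6 and 86.3 CPM in WT and at 139, 103 and 102 in Ifnar1-/- libraries (log2 fold change -0.23, 95% interval -0.60 to 0.14, edgeR adjusted p = 0.518). WT library 1 lay above 2 of the 3 Ifnar1-/- libraries. Itgb5 was at 210, 132 and 138 CPM in WT and at 144, 163 and 141 in Ifnar1-/- libraries, and its log2 fold change of 0.10 turned to -0.14 without WT library 1. Itgb3, the β chain of the platelet fibrinogen receptor and of αvβ3, was at 3.70, 3.19 and 5.33 CPM in WT and at 2.75, 3.22 and 2.21 in Ifnar1-/- libraries, where a log2 fold change of 0.57 had a wide interval of -0.20 to 1.34 (edgeR adjusted p = 0.424). Per length, Itgav was at 0.375 to 0.604 times the level of Itgb5. The other β chain genes grouped with αv here, Itgb6 and Itgb8, had no count and 0 to 2 counts per library.

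Of the immunoglobulin superfamily molecules, Icam1 and F11r were measured with small error. Icam1 (ENSMUSG00000037405.8, chr9:21015985-21028817) encodes the ligand of LFA-1 and Mac-1 and was at 147, 168 and 154 CPM in WT and at 129, 140 and 138 in Ifnar1-/- libraries. All 3 WT libraries were above all 3 Ifnar1-/- libraries by a small margin, and the log2 fold change of 0.20 (SE 0.13, 95% interval -0.09 to 0.50) was not called (edgeR adjusted p = 0.461). The interval excluded a 1.5-fold difference. F11r, which encodes the junctional molecule JAM-A, was at 70.1 to 79.9 CPM in WT and 68.5 to 80.4 CPM in Ifnar1-/- libraries, with a log2 fold change of -0.01 and a 95% interval of -0.31 to 0.29.

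The other members of this family are better known from endothelium and were low. Pecam1 (CD31) was at 16.8, 5.53 and 4.54 CPM in WT and at 8.09, 5.93 and 5.70 in Ifnar1-/- libraries. WT library 1 alone stood high, and the log2 fold change of 0.48 (95% interval -0.51 to 1.47, edgeR adjusted p = 0.614) turned to -0.38 without it. Icam2 was at 2.56 to 5.73 and 2.54 to 5.34 CPM, with a log2 fold change of 0.05 (95% interval -0.84 to 0.93). Vcam1, the ligand of α4β1, was at 2.28, 1.91 and 4.54 CPM in WT and at 2.29, 1.19 and 7.17 in Ifnar1-/- libraries, so that library 3 was the highest of each group. Its log2 fold change of -0.27 had an interval of -1.62 to 1.08 and turned to 0.28 in libraries 1 and 2 alone.

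Of the 6 endothelial markers, Cldn5, Tek and Tie1 had 0 to 4 counts per library, and Cdh5 (VE-cadherin) had 14, 1 and 5 counts in WT and 6, 1 and 1 in Ifnar1-/- libraries. Kdr was called higher in WT with 147, 33 and 31 against 8, 11 and 5 counts (log2 fold change 3.09, edgeR adjusted p = 0.0143). The call was lost without Ifnar1-/- library 1 (0.106) or 3 (0.0727) and with limma-voom (0.0678). Kdr passed the filter on low counts through its WT libraries, so that its test depended on the group where it was high. Flt1 was at a log2 fold change of 0.86 (edgeR adjusted p = 0.148). The list summed to 48.1 to 95.9 TPM in WT and 30.1 to 49.98 TPM in Ifnar1-/- libraries, and it was highest, like Pecam1, in WT library 1. The part of such cells in the Pecam1 value was not tested.

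CD44, the hyaluronan receptor, and CD47, the ligand of SIRPα and a partner of integrins, were highly expressed in both groups. Cd44 was at 988, 875 and 751 CPM in WT and at 1129, 784 and 777 in Ifnar1-/- libraries, with library 1 the highest of each group and a log2 fold change of -0.04 (95% interval -0.47 to 0.39, edgeR adjusted p = 0.942). Cd47 was at 316, 334 and 272 CPM in WT and at 289, 258 and 253 in Ifnar1-/- libraries. WT library 3 lay below Ifnar1-/- library 1, and the log2 fold change of 0.20 had a 95% interval of -0.12 to 0.53 (edgeR adjusted p = 0.507).

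The levels of the genes differed widely per length. In TPM as deposited, the mean of the 6 libraries was 453 for Itgb2, 366 for Itgam, 288 for Cd44 and 149 for Cd47. Those of Itga4, Itgb7, Itgb1, Selplg, Icam1, Itgb5, Itgal and Itga5 followed in this order from 97.6 to 50.1, and F11r, Itgav and Itgax lay at 29.5 to 24.3. Itga6, Selp, Icam2, Itga1, Pecam1, Vcam1 and Itgb3 were the lowest, from 8.33 to 0.567. Since 7S RNA took 38.4% of the TPM of WT library 1 and 14.2% to 19.4% of the others, the ranges across libraries were set on TPM rescaled over protein-coding genes, a scale chosen after these shares were seen. On this scale the means ran from 995 for Itgb2 to 1.23 for Itgb3, and the order was the same except that Itga1 (13.7) and Icam2 (13.5) changed places.

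The gaps at 4 places in this order were larger than the spread between libraries, since the lowest library of the upper gene exceeded the highest library of the gene below it. They lay between Cd44 and Cd47, between Cd47 and Itga4, between Itga5 and F11r, and between Itgax and Itga6. All other neighbors overlapped in range. Summed by family on the same scale, the β2 integrins reached 1966, Cd44 and Cd47 together 962, the β1 integrins 526, the immunoglobulin superfamily molecules 216, the αv integrins 176, the β7 integrins 172 and the selectins with Selplg 168.

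**Figure D4:**
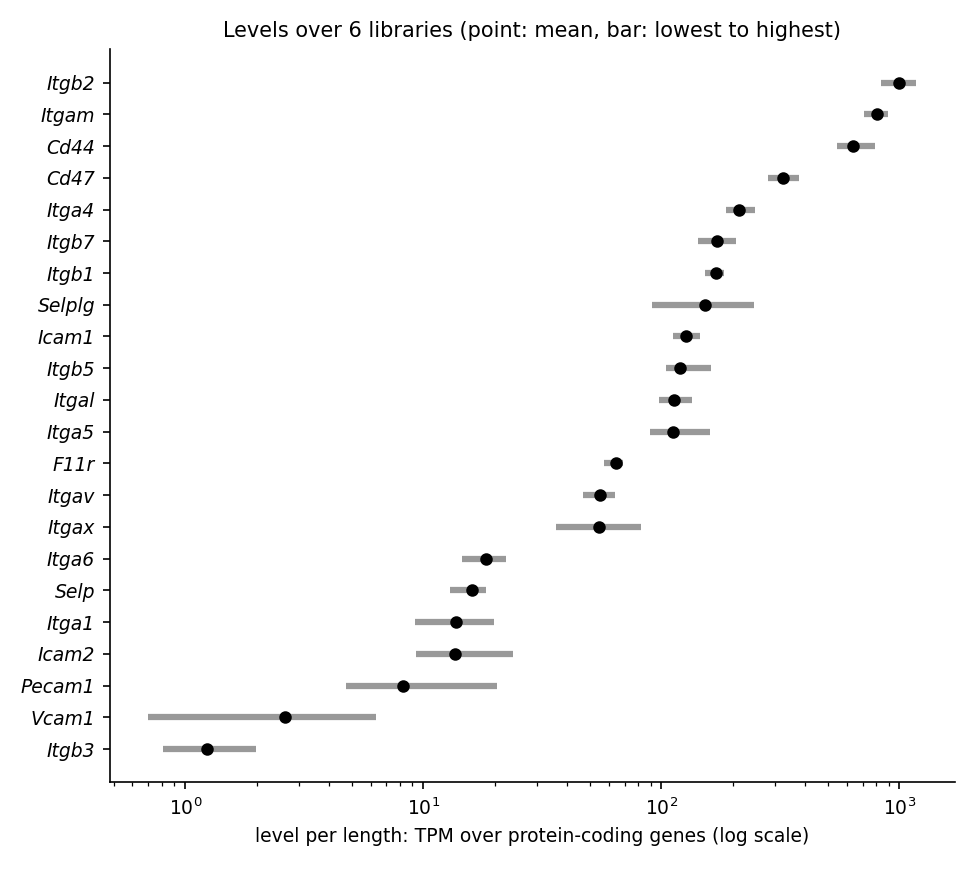
Level per length of the 22 adhesion genes, as TPM rescaled over protein-coding genes (log scale), with the mean of all 6 libraries as a point and the lowest and highest library as the ends of the bar. Itgb2 (995) and Itgam (803) are at the top and Itgb3 (1.23) at the bottom, and bars of neighbors overlap except at the gaps below Cd44, Cd47, Itga5 and Itgax.

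The highest of the 6 values came from WT library 1 for 9 of the 22 genes (40.9%), namely Itga5, Itga6, Itgal, Itgax, Itgb2, Itgb5, Itgb7, Selplg and Pecam1. The same held for 24.2% of all genes tested. WT library 1 was also the one with the largest total count and the largest share of 7S RNA, and the part of these in the values was not tested.

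The 13 genes that did not pass the filter were mostly at or under the detection floor. Itga11, Itgad, Itgb6 and Sele had no count in any library, and Itga2, Itga7, Itga8, Itga10, Itgb4 and Itgb8 had at most 2 counts per library. These include the collagen receptor chains α2, α10 and α11, the laminin receptor chains α7 and β4, and α8. Itga3, a laminin receptor chain, had 6, 0 and 1 counts in WT and 1, 0 and 2 in Ifnar1-/- libraries, with an exact interval of 0.567 to 14.9 around a ratio of 2.48. Itga9, which binds tenascin and VCAM-1, had 5, 2 and 2 counts in WT and 5, 3 and 5 in Ifnar1-/- libraries, with a ratio of 0.737 (0.278 to 1.86). Both intervals include 1 and cover counting error only. Gm10157, a pseudogene on the other strand within Itga9, had 3, 0 and 0 counts in WT and 40, 14 and 16 in Ifnar1-/- libraries.

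Integrins must be switched on from inside the cell, by talins, kindlins and RAP1, before they bind firmly. Of 42 genes of integrin activation and signaling, 34 were tested and edgeR called 0, where 6 had an unadjusted p under 0.05, 5 of them higher and 1 lower in WT (17.8% of all genes had such a p). DESeq2 called 1 of them and limma-voom 0. The median log2 fold change of the 34 genes was 0.25 against -0.01 over all genes. Zyx, which encodes the focal adhesion protein zyxin, was at 484, 465 and 407 CPM in WT and at 220, 378 and 251 in Ifnar1-/- libraries (log2 fold change 0.67, edgeR adjusted p = 0.132). All WT libraries were above the others, and the gene was called with DESeq2 (adjusted p = 0.032) and without Ifnar1-/- library 2 (edgeR adjusted p = 0.037). Ptk2b, the kinase PYK2, was at 187, 135 and 151 CPM in WT and at 95.1, 128 and 115 in Ifnar1-/- libraries (log2 fold change 0.49, edgeR adjusted p = 0.177).

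PSGL-1 binds P-selectin firmly only after it has been sulfated and glycosylated. Of 16 genes of these steps, 12 were tested and edgeR, DESeq2 and limma-voom called 0, where 3 had an unadjusted p under 0.05 (17.8% of all genes). Tpst1, a tyrosine sulfotransferase, was at 31.9, 28.5 and 26.7 CPM in WT and at 15.4, 19.0 and 20.4 in Ifnar1-/- libraries (log2 fold change 0.67, edgeR adjusted p = 0.082). Gcnt1, which builds the core 2 branch of the O-glycan, was at 73.0, 76.3 and 59.2 CPM in WT and at 120, 92.5 and 90.8 in Ifnar1-/- libraries (log2 fold change -0.54, edgeR adjusted p = 0.131). The libraries of the groups did not overlap for either gene, with WT above for Tpst1 and below for Gcnt1. The median of the 12 genes was 0.04.

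Of 40 other leukocyte adhesion molecules, 26 were tested and edgeR, DESeq2 and limma-voom called 0, where 7 had an unadjusted p under 0.05, 5 higher and 2 lower in WT (17.8% of all genes), with a median of 0.12. Cd81, a tetraspanin that associates with integrins, was at 11.2, 11.1 and 10.3 CPM in WT and at 17.3, 15.3 and 23.0 in Ifnar1-/- libraries (log2 fold change -0.76, edgeR adjusted p = 0.095). L1cam, a neural adhesion molecule, was at 7.26, 3.40 and 5.13 CPM in WT and at 1.99, 1.86 and 3.13 in Ifnar1-/- libraries (log2 fold change 1.2, edgeR adjusted p = 0.147). The groups did not overlap for either gene, and neither passed the test.

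Among 31 extracellular ligands of integrins 9 were tested, and edgeR called 2 higher (1.67% of all genes) and 0 lower in WT, with a median of 0.54. DESeq2 called 3 and limma-voom 2 of them, and 4 had an unadjusted p under 0.05 (17.8% of all genes), all higher in WT. Vwf, which encodes von Willebrand factor of endothelium and platelets, was at 22.8, 14.5 and 16.4 CPM in WT and at 5.34, 7.79 and 8.09 in Ifnar1-/- libraries, so that all WT libraries were above (log2 fold change 1.35, SE 0.25, edgeR adjusted p = 0.0189). Ltbp1, which tethers latent TGF-β to matrix, had 28, 9 and 10 counts in WT and 0, 1 and 1 in Ifnar1-/- libraries (edgeR adjusted p = 0.013). It passed the filter on low counts through its WT libraries alone. Its place among the 9 tested genes and its share in their median thus depended on the group where it was high. The summed counts of 47 and 2 gave a ratio of 25, with an exact 95% interval of 6.55 to 213 that covers counting error only, and 28 of the 47 counts came from WT library 1. Both genes lost their call without WT library 1 or any single Ifnar1-/- library, at edgeR adjusted p = 0.0587, 0.101, 0.0507 and 0.0551 for Vwf and 0.0718, 0.0851, 0.0545 and 0.0601 for Ltbp1 in this order, and also in libraries 1 and 2 alone (0.123 and 0.0903). The endothelial marker sums given above were 48.1 to 95.9 TPM in WT and 30.1 to 49.98 TPM in Ifnar1-/- libraries. Within that list, Flt1 overlapped between the groups and Kdr did not. The part of endothelial cells in the Vwf value was not tested.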

How the data were processed

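RNA of CNS monocytes from 3 WT and 3 Ifnar1-/- samples was sequenced by the authors, who mapped reads to GRCm38 and deposited for each gene an expected count and a TPM value per library from RSEM. Per the labels' processing notes these tools were STAR 2.6.0c and RSEM 1.2.31. The labels name a Takara SMARTer Stranded Total RNA-Seq Pico kit and the study's methods a TruSeq Stranded Total RNA kit, and whether counting used the strand is not given in the sources used here. The deposited expected counts are not normalized, whereas the deposited TPM values correct for transcript length and library size. FPKM values, which the authors deposited in the same files, were not used.

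Gene symbols and positions came from GENCODE M21, which matched 54165 of 54232 identifiers. Expected counts were rounded and tested with edgeR 4.0.16 in R 4.3.3 (filterByExpr with a minimum count of 10, TMM, quasi-likelihood test, Benjamini-Hochberg adjustment over 11254 genes) on all 6 libraries without a block. SE and 95% intervals came from the same fit. Genes under the filter were compared by summed counts with exact Clopper-Pearson intervals. TPM was additionally rescaled over protein-coding genes. Upstream sequences came from RefSeq (GRCm38.p6).

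The same-numbered libraries showed correlations of 0.0906, 0.0278 and 0.2755 between their deviations from the group means. Those of differently numbered libraries lay between -0.1963 and 0.0920. These values cannot settle whether equal numbers share a recipient, which the sources do not state. The main test used no block, and a fit with the number as a block is among the alternatives. Alternatives were DESeq2 1.42.0, limma-voom (limma 3.58.1), RLE normalization, other filters, removal of ribosomal and 7S RNA, GC and length offsets, a replicate block and leaving out libraries. On simulated counts for this comparison (11254 genes, 11047 tested) edgeR recovered 57.9% of 2-fold and 93.8% of 4-fold changes, and 8.23% of its calls were false. The members and all lists were chosen with earlier results of these data known. All members, the called genes of each list or else its 2 genes with the smallest p, and Ifnar1 were named. Single marker genes and genes that overlap members were named after their values were seen. Another promoter motif that was searched is not reported here.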

Additional observations from a re-analysis of the deposited data

How the results depend on the processing

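Over the alternatives, 368 values of the 22 tested adhesion genes kept their direction and their side of the thresholds, 46 changed sign, 1 gained and 2 lost a call. Itga1 kept its call except without Ifnar1-/- library 1 and in libraries 1 and 2 alone, where the number of members called lower in WT was 0 (0 to 1 when single libraries were left out). Members called higher in WT numbered 2 with no filter on low counts and 0 otherwise. Over the whole table, the counts higher and lower in WT were 354 and 115 with DESeq2, 610 and 262 with no filter, 90 and 5 in libraries 1 and 2 alone, and 110 to 204 and 7 to 41 when single libraries were left out, and 34 were lower with GC and length offsets. Of the lists, integrin activation and signaling had 1 call with DESeq2, 1 with DESeq2 and a replicate block, 4 with no filter and 0 to 1 without single libraries. Selectin ligand glycosylation had 1 and other leukocyte adhesion molecules 4 calls with no filter, and the latter 1 with the block and GC and length offsets and 0 to 1 without single libraries. Extracellular ligands had 3 with DESeq2, 4 with no filter, 1 with at least 10 counts in every library, 0 in libraries 1 and 2 alone and 0 to 2 without single libraries. The cause was not tested.

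With the replicate number as a block, which is not known to pair the samples, Itga1 was at -0.96 (edgeR adjusted p = 0.0156) and 182 genes were called higher and 38 lower in WT.

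Reversed directions concerned only genes without a call. In libraries 1 and 2 alone these were Itga4 (-0.062), Icam2 (-0.11), Vcam1 (0.28) and F11r (0.10). With GC and length offsets, Itgal (-0.19), Itgb2 (-0.0094), Itgb5 (-0.11) and Itgb7 (-0.18) turned, and with the replicate block added to the offsets they were at -0.18, -0.0057, -0.12 and -0.17. With limma-voom Icam2 was at -0.016 and Vcam1 at 0.024. Itgam and F11r lay near 0 and turned with DESeq2 (0.0020 and 0.0082), RLE normalization (0.0020 and 0.0082), removal of mitochondrial and ribosomal RNA (0.0023 and 0.0079), the same with 7S RNA (0.0060 and 0.015) and DESeq2 with a block (0.0035 and 0.0087). When single libraries were left out, the log2 fold changes ranged from -0.011 to 0.10 for Itga4, from -0.043 to 0.22 for Itgal, from -0.10 to 0.11 for Itgam, from -0.24 to 0.33 for Itgax, from -0.14 to 0.24 for Itgb5, from -0.20 to 0.35 for Icam2, from -0.70 to 0.74 for Vcam1, from -0.38 to 0.82 for Pecam1, from -0.054 to 0.063 for F11r and from -0.13 to 0.17 for Cd44. Genes under about 10 counts per library, Itgae among them, are limited by depth.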
